A study of Mus musculus with 4 samples.

Results

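The regions described here are stretches of the mouse genome with little cytosine methylation in wild-type (WT) hair matrix keratinocytes that carried much more in cells without Tet2 and Tet3. They were taken from the authors' deposited table of differentially methylated regions. A member lies on chromosomes 1 to 19, has a mean level below 20% in the WT and is at least 20 percentage points higher in the double knockout (DKO). The rule left 4449 members of 474611 listed autosomal regions and of 484555 in all. The members were chosen by both measured levels, so the levels and differences below describe them and are not tested.

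Sorted hair matrix keratinocytes from mice at postnatal day 4.5 were profiled by whole-genome bisulfite sequencing. There were 2 libraries from mice labelled Tet2/Tet3 DKO with Krt14-Cre and 2 libraries labelled WT. The keratin 14 promoter acts in basal keratinocytes, and a deletion made there passes to their descendants. The labels therefore describe a loss in epithelium and not in the whole animal. The labels do not give the sex of the mice, whether the WT carried Cre or floxed alleles, or whether libraries of a genotype came from separate animals. Cells were sorted either native or fixed with formaldehyde, and which library came from which is not given. A methylation table cannot check the cell type against expressed markers.

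Methylated cytosine is mostly found at CG dinucleotides and, near gene starts and enhancers, usually accompanies an inactive state. TET enzymes oxidise 5-methylcytosine to 5-hydroxymethylcytosine and further products, which can then be lost at replication or cut out and repaired. Hair matrix keratinocytes are the dividing epithelial cells at the base of the follicle that form the hair shaft and inner root sheath. In mammalian cells, CG-rich gene starts are generally free of methylation, and low methylation away from them is a known property of active enhancers.

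Each value is a group mean from the deposited table, which holds no values per library, no read counts and no p-values. The depth is therefore unknown, no difference has a replicate check, and the spread estimate of a region is the authors' own (median 3.85 points over members). The title of the table names the WT before the DKO, and its first group was taken as the WT on that ground alone, so a reversed order would turn every direction. Bisulfite sequencing does not separate 5-methylcytosine from 5-hydroxymethylcytosine. Regions were listed for their statistic, and the bound differed by sign. The statistic was positive for 27 members and for 10834 of the 10951 low regions that were not members, so comparisons between these sets concern listed regions only.

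Few members reached a gene start, and the promoters of those that did held few CG dinucleotides. The 250 bases before the start of 4 such genes are shown, from RefSeq (GRCm38.p6), 5′ to 3′ on the gene's strand with each CG in capitals. All 4 stretches lie wholly within a member. Padi4 encodes a peptidylarginine deiminase, Zbtb7b a zinc-finger transcription factor, Cers3 a ceramide synthase needed for the skin barrier and Il1rl2 the receptor of interleukin-36. Their windows were chr4:140774204-140774453 on the minus strand for Padi4, chr3:89387672-89387921 on the minus strand for Zbtb7b, chr7:66743254-66743503 on the plus strand for Cers3 and chr1:40324339-40324588 on the plus strand for Il1rl2.
Padi4: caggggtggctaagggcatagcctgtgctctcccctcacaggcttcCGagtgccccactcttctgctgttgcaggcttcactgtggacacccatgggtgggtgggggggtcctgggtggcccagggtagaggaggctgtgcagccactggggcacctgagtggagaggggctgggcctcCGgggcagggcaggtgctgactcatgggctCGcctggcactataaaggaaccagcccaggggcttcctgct
Zbtb7b: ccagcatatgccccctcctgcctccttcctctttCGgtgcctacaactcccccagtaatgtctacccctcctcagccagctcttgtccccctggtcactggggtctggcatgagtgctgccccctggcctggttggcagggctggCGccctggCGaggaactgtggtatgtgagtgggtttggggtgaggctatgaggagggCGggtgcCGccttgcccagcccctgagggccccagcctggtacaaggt
Cers3: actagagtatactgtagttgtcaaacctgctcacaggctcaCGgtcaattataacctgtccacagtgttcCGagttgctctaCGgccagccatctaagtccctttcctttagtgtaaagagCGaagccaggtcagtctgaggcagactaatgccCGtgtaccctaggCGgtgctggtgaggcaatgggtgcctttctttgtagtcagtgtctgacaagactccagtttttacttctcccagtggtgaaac
Il1rl2: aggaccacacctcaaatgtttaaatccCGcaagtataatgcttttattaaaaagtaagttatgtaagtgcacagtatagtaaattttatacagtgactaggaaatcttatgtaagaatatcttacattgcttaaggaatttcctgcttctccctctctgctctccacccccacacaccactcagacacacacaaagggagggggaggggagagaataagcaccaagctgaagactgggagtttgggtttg

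For contrast, 2 genes that hold members further inside had a start that stayed low in both genotypes. Dsp encodes desmoplakin, the protein that ties keratin filaments to desmosomes, and Bcl11a a zinc-finger repressor. Their windows were chr13:38151044-38151293 and chr11:24080445-24080694, both on the plus strand.
Dsp: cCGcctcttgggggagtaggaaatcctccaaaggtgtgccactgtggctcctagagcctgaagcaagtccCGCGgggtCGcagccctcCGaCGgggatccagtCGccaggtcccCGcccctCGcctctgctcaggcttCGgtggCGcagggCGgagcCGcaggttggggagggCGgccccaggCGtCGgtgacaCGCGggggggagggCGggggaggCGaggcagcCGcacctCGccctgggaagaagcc
Bcl11a: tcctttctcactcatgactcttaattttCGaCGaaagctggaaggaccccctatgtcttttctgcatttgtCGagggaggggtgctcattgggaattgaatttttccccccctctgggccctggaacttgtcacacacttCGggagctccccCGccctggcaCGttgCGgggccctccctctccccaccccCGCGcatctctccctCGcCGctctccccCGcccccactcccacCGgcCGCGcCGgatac

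The windows of Padi4, Zbtb7b, Cers3 and Il1rl2 held 3, 5, 6 and 1 CG, against 22 in that of Dsp and 16 in that of Bcl11a. In the authors' deposited table, the member over the Padi4 start was at 71.0% in the DKO and 19.9% in the WT. The member over the Zbtb7b start was at 70.8% in the DKO and 15.9% in the WT in the same authors' deposited table. The levels were 48.1% in the DKO and 17.1% in the WT at Cers3, and 66.8% in the DKO and 15.3% in the WT at Il1rl2, by the authors' deposited table. The region over the Dsp start had 304 cytosine positions and was at 4.64% in the DKO and 3.28% in the WT, and that over the Bcl11a start had 264 and was at 2.47% in the DKO and 2.51% in the WT, in the authors' deposited table. Low GC content did not go with all of the low counts, since the Padi4 window was 66.0% G and C, against 72.4% in the Dsp window and 41.2% in the Il1rl2 window.

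Members became intermediately methylated in the DKO and rarely highly methylated. Of the listed autosomal regions with a WT level below 20%, 4449 of 15400 (28.9%) were members, while 110564 regions (23.3%) of all listed autosomal regions gained at least 20 points. Over the members the median level was 50.4% in the DKO (interquartile range 43.8 to 58.1) and 16.5% in the WT (13.6 to 18.4). The lowest DKO level was 21.6% and the highest 93.1%. The difference had a median of 34.4 points (interquartile range 28.3 to 41.7) and a maximum of 75.1 points.

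Most DKO levels were near the middle of the scale. A DKO level of 40 to 60% was found in 2955 members (66.4%), a lower one in 597 (13.4%) and a higher one in 897 (20.2%). Only 27 members reached 80%, and 360 differed by 50 points or more. For comparison, 73.7% of the 34972 gaining regions that began at 20 to 40% in the WT reached at least 60% in the DKO. The rule sets a higher floor on such a share where the WT level is higher, so the next values are a description. Expressed as a part of what was unmethylated in the WT, the members gained a median of 40.9%, the regions beginning at 20 to 40% gained 49.3% and those beginning at 40 to 60% gained 56.5%.

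Members were also described by band of WT level, with the lowest DKO level that the rule allows rising from band to band. Only 31 of 6417 listed regions with a WT level under 5% were members (0.483%), against 318 of 2364 at 5 to 10% (13.5%), 1235 of 2580 at 10 to 15% (47.9%) and 2865 of 4039 at 15 to 20% (70.9%). The median DKO level of the members was 30.3%, 39.1%, 46.9% and 52.9% in these 4 bands of rising WT level. Their median width was 21, 163, 300 and 416 bp in the same order. Of the 31 members under 5%, 13 were single positions or pairs.

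**Figure D1:**
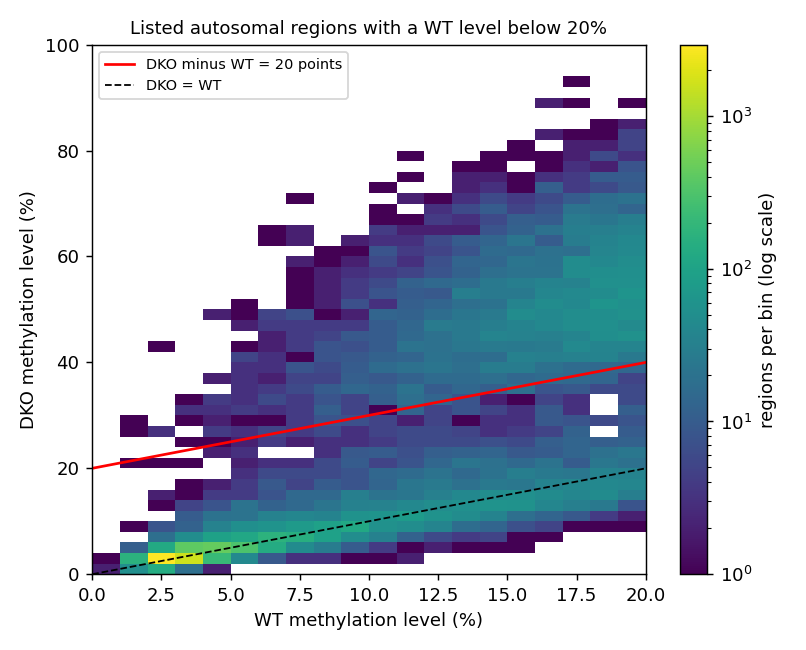
Methylation level in the DKO (vertical axis, %) against the WT (horizontal axis, %) for the 15400 listed autosomal regions with a WT level below 20%, with colour giving regions per bin on a log scale. The 4449 members lie above the red line, around a median DKO level of 50.4%, and a separate dense band of regions lies along the dashed line of equal levels, mostly at WT levels under 5%.

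The thresholds did not mark a gap on the WT axis. The 3 members nearest the WT bound had WT levels of 19.9948%, 19.9961% and 19.9988%, and the 3 gaining regions just above it had 20.0002%, 20.0007% and 20.004%. In all, 1389 members (31.2%) had a WT level of 18 to 20%, and 1680 gaining regions had one of 20 to 22%. The difference bound lay in a thinner zone, with 183 members at 20 to 22 points and 110 low regions at 18 to 20 points. The 3 members nearest to it differed by 20.003, 20.004 and 20.02 points, and the 3 low regions just under it by 19.91, 19.92 and 19.92 points.

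Members were short and CG-poor beside the other regions that were low in the WT. Their median width was 357 bp (interquartile range 118 to 704, maximum 3333), and together they covered 2.08 Mb. There were 534 members of 1 kb or more, 35 of 2 kb or more and 1026 under 100 bp (23.1%). The median number of cytosine positions was 14, and 581 members (13.1%) had only 1 or 2. A CG on both strands mostly counts as a pair of positions.

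Density was set side by side for regions of at least 10 positions, since a region of 1 or 2 positions has a meaningless density. The 2749 such members held a median of 3.86 positions per 100 bp, against 10.99 in the low regions that were not members. The median was 3.38 in gaining regions that began at 20 to 40%, 3.22 in those that began at 40 to 60% and 3.30 over all listed autosomal regions. By the median on each of the 19 chromosomes, members were denser than the gaining regions of 20 to 40% and less dense than the low regions that were not members. Members were also narrower than both of these sets on all 19 chromosomes, with regions of any number of positions. They were wider than all listed autosomal regions on all 19. They were wider than the gaining regions of 40 to 60% on 14 chromosomes and narrower on 5. The median width was 731 bp in low regions that were not members and 459 bp in gaining regions of 20 to 40%. It was 324 bp in those of 40 to 60% and 258 bp over all listed autosomal regions.

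**Figure D2:**
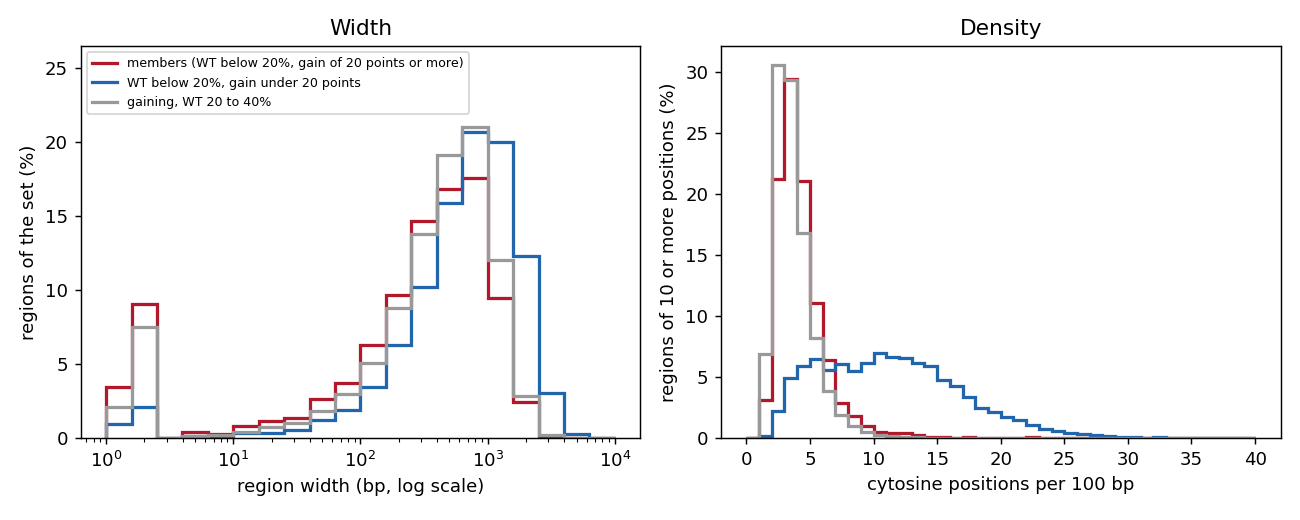
Distribution of region width (left, bp on a log axis) and of cytosine positions per 100 bp for regions of at least 10 positions (right), as percent of each set. The members (red) lie close to the gaining regions of WT level 20 to 40% (grey), with a median density of 3.86 positions per 100 bp, while the low regions that were not members (blue) spread around 10.99.

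Larger members reached higher levels. The median DKO level was 44.9% in members of 1 to 2 positions, 46.8% at 3 to 9, 49.8% at 10 to 19, 53.9% at 20 to 39 and 58.3% at 40 or more. Across the 4449 members, Spearman's rho was 0.379 between positions and DKO level and 0.375 between width and difference. It was 0.404 between the WT and DKO levels, which the rule ties to each other, and -0.0974 between density and DKO level over 2749 members. These are descriptions across regions that share the same libraries and, for neighbours, the same stretch of DNA.

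Among listed regions that were low in the WT, the share that were members fell with density. It was 73.6% of 909 regions under 3 positions per 100 bp, 56.7% of 2445 at 3 to 5, 24.01% of 2328 at 5 to 8, 3.93% of 2568 at 8 to 12 and 0.775% of 4256 at 12 or more. Dense regions also had lower WT levels, and the trend was therefore viewed with WT levels of 10 to 20% alone. There the share was 79.8% under 3 positions per 100 bp, 68.5% at 3 to 5, 45.7% at 5 to 8, 24.3% at 8 to 12 and 22.7% at 12 or more.

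Low regions over a gene start were seldom members, also within density classes of 3 or more positions per 100 bp. These classes were not matched on WT level. The share of members rose from 0.483% at WT levels under 5% to 70.9% at 15 to 20%, and its part in the comparison was not tested. Gene starts came from the RefSeq promoter table, which was used without chromosome 18. Of low regions that covered a start, 36 of 4243 were members (0.848%). Under 3 positions per 100 bp only 11 regions covered a start, and 7 of them were members. At 3 to 5 positions per 100 bp the share was 20.0% of 105 regions that covered a start, against 58.4% of 2248 that did not. At 5 to 8 positions it was 4 of 336 regions with a start, against 28.0% of 1935 without. None of 1234 listed low regions with a start at 8 to 12 positions, and none of 2547 at 12 or more, was a member. The Wilson intervals, which cover counting error over listed regions only, reached 0.310% and 0.151%. By distance, the share was 17.97% at 1 bp to 1 kb from a start without covering it, 48.7% at 1 to 5 kb, 39.4% at 5 to 50 kb and 46.2% beyond.

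**Figure D3:**
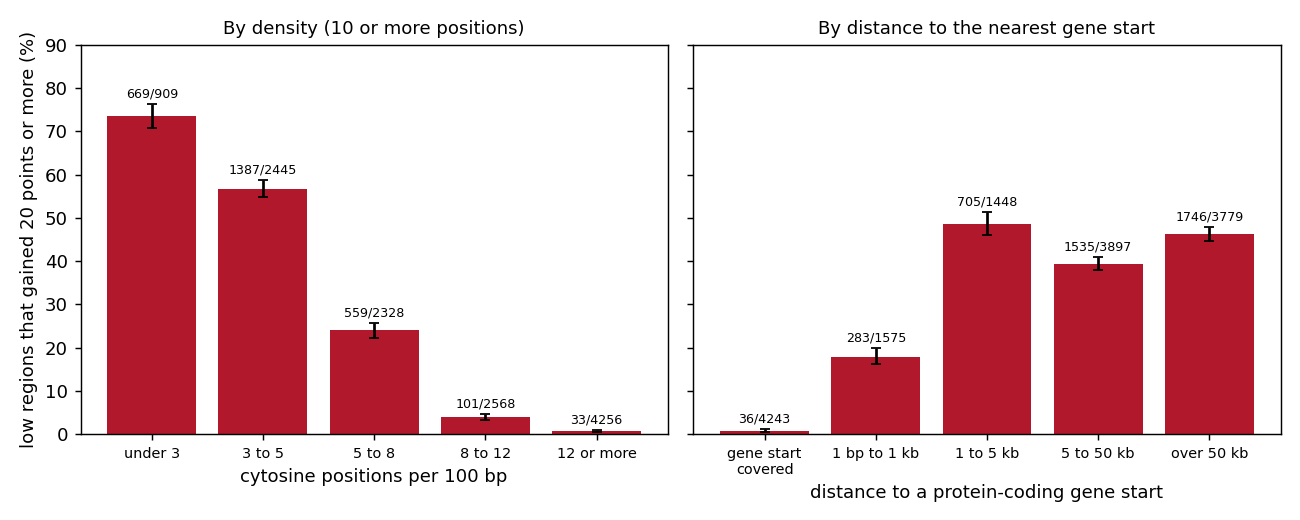
Percent of listed regions with a WT level below 20% that gained at least 20 points in the DKO, by cytosine positions per 100 bp (left) and by distance to the nearest protein-coding gene start (right). Bars give the share with members and regions counted above them, and error bars are 95% Wilson intervals that cover counting error over regions only. The share falls from 73.6% in the least dense class to 0.775% in the densest, and is 0.848% where a start is covered.

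Members lay mainly inside and between genes, and more of them than of other gaining regions lay 1 to 5 kb from a gene start. Of the members, 2204 (49.5%) lay inside a protein-coding gene, 1840 (41.4%) between genes and 405 (9.10%) within 1 kb of a gene end. A gene end here and below is either boundary of a gene, the start side included, because the gene table had no strand. The share near a gene end was 56.9% in low regions that were not members, 6.70% in gaining regions that began at 20 to 40% and 4.87% over all listed autosomal regions. It was higher in members than in the gaining regions of 20 to 40% on 17 of 19 chromosomes.

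The nearest gene start was a median of 33.1 kb from a member, against 0.67 kb for low regions that were not members, 44.1 kb for gaining regions of 20 to 40% and 60.1 kb for all listed autosomal regions. A distance of 1 to 5 kb was found for 16.4% of members, against 10.9% of the gaining regions of 20 to 40% and 6.78% of all listed. Levels were lower in this zone. The median DKO level was 44.8% in members within 1 kb of a start without covering it, 47.5% at 1 to 5 kb, 51.2% at 5 to 50 kb and 51.4% beyond, with 52.3% in the 36 members that covered a start. Median widths in these classes were 223, 240, 381, 419.5 and 742 bp in the same order.

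**Figure D4:**
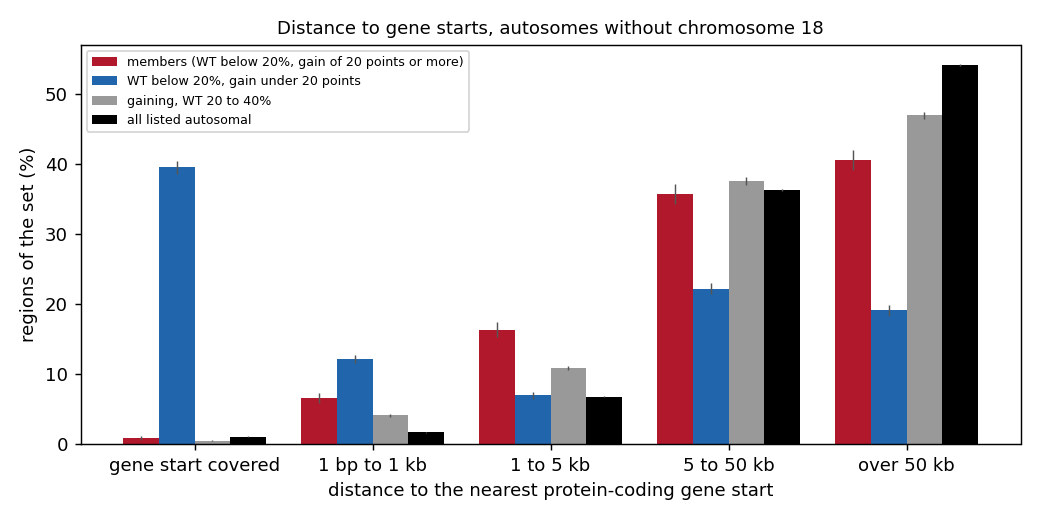
Distance from each region to the nearest protein-coding gene start as percent of each set, on the autosomes without chromosome 18. Red bars are members, blue bars low regions that were not members, grey bars gaining regions of WT level 20 to 40% and black bars all listed autosomal regions, with 95% Wilson intervals for counting error over regions. At 1 to 5 kb the members stand at 16.4%, above the 6.78% of all listed regions.

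The 37 gene starts inside members, of 36 genes, had sparse promoters like the 4 printed above. The 250 bases before them held a median of 5 CG (interquartile range 3 to 6), against 19 (13 to 26) for the 5115 starts in low regions that were not members. The median was 4 for the 170 starts in gaining regions of 20 to 40% and 10 over all 20085 starts. The median share of G and C was 50.4% at starts in members, 64.0% at starts in low regions that were not members and 56.0% over all.

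Short motifs were counted in the same 250 bases on both strands. The TATA-box letters TATAAA were in 7 of the 37 windows (18.9%) and in 11.7% of all windows, and the AP-1 motif TGANTCA in 5 (13.5%) and in 6.18% of all. The GC-box letters GGGCGG were in 7 (18.9%), against 69.8% of windows at starts in low regions that were not members and 43.4% of all. The E-box CACGTG was in 1 window (2.70%) and in 6.69% of all. No motif contains another, and a match or its lack is a description of these windows. In the gaining regions of 20 to 40%, the most similar set, windows before starts held TATAAA in 12.9%, TGANTCA in 16.5%, GGGCGG in 14.7% and CACGTG in 5.29% of 170 windows. The Padi4 window printed above held both TATAAA and TGANTCA.

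Many members sat beside further gaining sequence. Within 500 bp, 2547 members (57.2%) had another listed region, against 46.9% of all listed autosomal regions. Of the 3099 neighbours of members, 72.9% gained at least 20 points, close to the 74.1% of neighbours of gaining regions of 20 to 40%. The neighbours were at a median of 67.9% in the DKO and 29.8% in the WT, and 79.1% of them were more methylated than their member in the WT. The rule chose members for a low WT level, and the same share was 89.9% for low regions that were not members. Joined with gaining regions within that distance, 1965 members (44.2%) formed part of a longer run. Runs that held a member had a median width of 709 bp, against 538 bp for runs without. Of the 4165 runs with a member, 1681 joined 2 or more regions. A run of more regions has more chances to hold a member, and its part in the width difference was not tested. Position density was 3.79 per 100 bp inside members and 2.02 in the gaps to the next listed region. The other sets were also denser inside than in the gaps, with 3.34 and 1.78 in gaining regions of 20 to 40%. Over all listed autosomal regions the values were 3.67 and 1.30.

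A part of the members flanked regions that stayed low. Within 2 kb of 944 members (21.2%) lay a listed low region that was not a member, against 10.4% of gaining regions of 20 to 40%, 4.16% of those of 40 to 60% and 2.90% of all listed autosomal regions. These shares describe position only, and no test over regions was made.

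The genes with most members were long and included several transcription factors. Counting each protein-coding gene with 5 kb on either side, 2348 of 20665 genes (11.4%) held a member, 203 held 3 or more and 28 held 5 or more. These windows took in 2885 members (64.8%). The median gene length was 43.9 kb for genes with a member and 136.8 kb for those with 3 or more, against 17.5 kb over all genes. The share with a member was 4.82% of genes under 10 kb, 9.87% at 10 to 30 kb, 14.6% at 30 to 100 kb, 28.1% at 100 to 300 kb and 33.2% of longer genes.

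Arid5b, which encodes a DNA-binding protein of the ARID family, led with 12 members. Their levels in the authors' deposited table ranged over 42.5 to 69.2% in the DKO and 7.73 to 19.9% in the WT. Bnc2, for the zinc-finger protein basonuclin 2, held 9 members at 38.8 to 75.02% in the DKO and 8.36 to 18.6% in the WT in the authors' deposited table. The rule itself keeps the DKO and WT ranges of members apart.

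Kank1, which encodes an adaptor of focal adhesions, held 7 members. The genes with 6 members each were Tcf4 (a basic helix-loop-helix factor), Casz1 (a zinc-finger factor), Dnm3 (a dynamin), Tnfaip8, Tenm2 (a teneurin adhesion protein), Gse1, Bcl11b (a zinc-finger factor), Rara (a retinoic acid receptor) and Rgmb (a co-receptor of bone morphogenetic proteins). Bcl11a and Aopep, for an aminopeptidase, held 5 each and completed the 15 genes. Exactly 5 members were held by 15 genes, and these 2 were taken by the summed length of their members. In the authors' deposited table the DKO levels of Kank1 members spanned 51.2 to 66.8%, with 9.47 to 18.9% in the WT.

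The 6 Casz1 members stood at 34.5%, 73.6%, 66.4%, 93.1%, 62.0% and 46.8% in the DKO in genome order, in the authors' deposited table. The WT levels of the same members were 11.7%, 16.0%, 11.4%, 17.9%, 18.4% and 17.1% in the authors' deposited table. The fourth of them carried the highest DKO level and the largest difference of all members of at least 10 positions, over 72 positions and 1060 bp at chr4:148873822-148874881. The first member in genome order had a positive extreme statistic, the sign opposite to that of nearly all members, as did 2 members of Tenm2, 2 of Aopep and the Bcl11a member at 35.99%. The region over a Casz1 start, of 423 positions, was at 3.63% in the DKO and 3.17% in the WT in the authors' deposited table.

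At Bcl11b the 6 members were at 55.5%, 63.4%, 51.3%, 79.2%, 45.7% and 59.7% in the DKO, in genome order and in the authors' deposited table. Their WT levels were 13.0%, 13.6%, 14.1%, 18.8%, 6.23% and 13.9% in the authors' deposited table. The member with the lowest WT level had 60 positions over 902 bp and lay 50004 bp from the nearest gene start. The Bcl11b start lay in a region of 393 positions at 2.82% in the DKO and 2.71% in the WT in the authors' deposited table.

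The 5 members of Bcl11a were at 50.7%, 35.99%, 54.7%, 62.9% and 62.2% in the DKO, from the authors' deposited table. In the WT they were at 13.3%, 13.0%, 8.65%, 10.3% and 14.7% in the authors' deposited table. They lay 2788 to 25830 bp from the start whose promoter is printed above. Rgmb had its 6 members at 55.6 to 69.8% in the DKO and 13.8 to 16.4% in the WT in the authors' deposited table. Of these 6, 4 stood within 1529 bp, and a start of the gene lay in a region at 3.54% in the DKO and 2.499% in the WT in the authors' deposited table.

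Rara carried members near protein-coding gene starts, which were not checked to be its own. The 6 members were at 46.9 to 60.6% in the DKO and 8.33 to 17.5% in the WT in the authors' deposited table. A member of 33 bp covered a protein-coding gene start that lay within Rara. The start at 98937696 on chromosome 11 lay in a region of 223 positions that was at 4.73% in the DKO and 3.08% in the WT in the authors' deposited table.

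**Figure D5:**
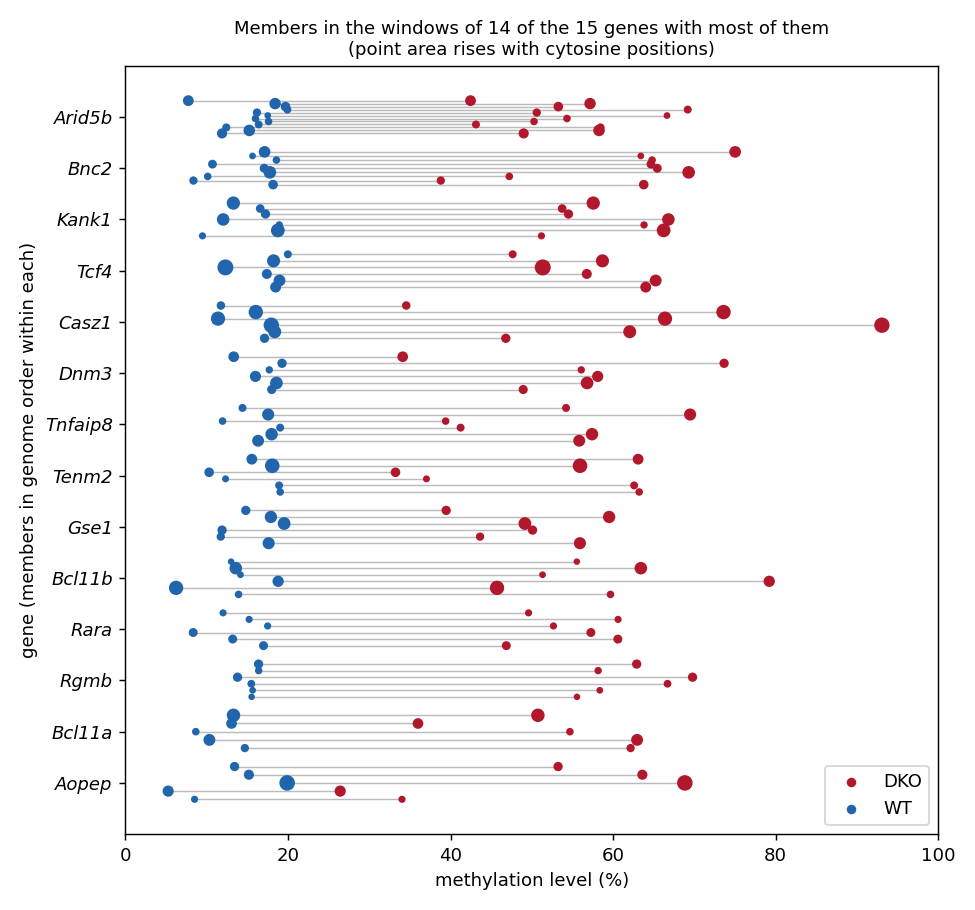
Methylation level (horizontal axis, %) in the DKO (red) and the WT (blue) of each member in the windows of 14 of the 15 genes with most members, with a line joining the values of a member and point area rising with its cytosine positions. Each point is a group mean with no replicate error. Arid5b has 12 members at 42.5 to 69.2% in the DKO, and the point farthest right is the Casz1 member at 93.1%.

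Outside Casz1, the next highest DKO levels among members of at least 10 positions were as follows. A member inside Arel1, for an E3 ubiquitin ligase, was at 89.2% in the DKO and 16.0% in the WT in the authors' deposited table. A member inside Camk2g, for a subunit of calmodulin-dependent kinase II, was at 88.5% in the DKO and 17.0% in the WT in the authors' deposited table. Bckdha, for a subunit of branched-chain keto acid dehydrogenase, held a member at 84.6% in the DKO and 19.7% in the WT in the authors' deposited table. Tnc, for the matrix protein tenascin C, held a member at 84.4% in the DKO and 18.9% in the WT in the authors' deposited table.

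Others among the 10 highest included members outside genes. A member 26631 bp from Cxcl14, which encodes a chemokine, was at 84.5% in the DKO and 19.4% in the WT in the authors' deposited table. A member 17029 bp from Fzd1, for a Wnt receptor, was at 83.4% in the DKO and 16.7% in the WT in the authors' deposited table. Tnik, a kinase of the Wnt pathway, Snx4, a sorting nexin, and Rasgef1b, a Ras exchange factor, held members at 84.0%, 83.5% and 82.9% in the DKO, from the authors' deposited table, with 19.5%, 19.02% and 16.4% in the WT. By difference, Ptgfrn and Setbp1 also ranked among the first 10, at 65.7 and 65.3 points in the authors' deposited table.

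Among members of at least 10 positions, the widest, of 3333 bp and 93 positions, lay 9538 bp from Camk2g and was at 57.7% in the DKO and 19.8% in the WT in the authors' deposited table. A member of 3294 bp and 119 positions, 57500 bp from the homeobox gene Msx2, was at 67.6% in the DKO and 19.3% in the WT in the authors' deposited table. A member of 2668 bp, 16597 bp from the Wnt receptor gene Fzd5, was at 61.0% in the DKO and 15.01% in the WT in the authors' deposited table.

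Other wide members lay inside Lrig1, a regulator of growth factor receptors that marks follicle stem cells, at 2590 bp and Cd9, a tetraspanin, at 2514 bp. They were at 47.5% and 71.7% in the DKO, with 19.7% and 17.1% in the WT, in the authors' deposited table. The Lrig1 member had a positive extreme statistic (3.86), the sign opposite to that of nearly all members, and a spread estimate of 6.68 points. The wide member of Zbtb7b, of 2470 bp, is the one over its start. Snx18, Tns1 and Ybx3 held members of 2426, 2392 and 2351 bp, and a member of 2394 bp had Efna5, for an ephrin ligand, as its nearest gene at 232679 bp.

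Of the members across a gene end, the 10 with most positions were described. Dlx3, a homeobox gene of hair and tooth development, had one of 69 positions at 56.4% in the DKO and 15.3% in the WT in the authors' deposited table. Padi4 followed with 62 positions. Lgals7, for galectin-7 of stratified epithelia, had a member of 46 positions at 67.2% in the DKO and 15.7% in the WT in the authors' deposited table. S100a14, a member of the S100 family, had one of 38 positions at 59.1% in the DKO and 15.8% in the WT in the authors' deposited table.

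The other members among the 10 with most positions across a gene end were at Rab7b, Bcas1, Tuft1, Csad, Ggt6 and Slitrk6. In the authors' deposited table they stood at 41.7 to 53.0% in the DKO and 10.4 to 17.4% in the WT. Of these, Csad, Ggt6 and Slitrk6 had a start inside the member, as Padi4 did.

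Gene lists were then counted beside the 11.4% of all autosomal protein-coding genes with a member in the window. The lists were written with earlier results of these data known, so their shares are a description only. Gene length moves with these counts, so the median length of each list stands beside its count. Among all genes, 9.87% of those of 10 to 30 kb and 14.6% of those of 30 to 100 kb held a member. Of 26 transcription factors of hair matrix and shaft, 11 (42.3%) held a member, with 26 members in all and a median length of 20.8 kb. Of 25 epidermal lineage factors, 14 (56.0%) did, with 28 members and a median length of 30.5 kb. Bcl11b and Bcl11a led the first list and Casz1 the second, as described above. Nfib, a nuclear factor I gene needed for hair follicle stem cells, followed with 4 members at 32.4 to 60.1% in the DKO and 8.89 to 17.2% in the WT in the authors' deposited table. The Nfib member at 32.4% had a positive extreme statistic (3.10), the sign opposite to that of nearly all members.

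Receptors and mediators of Shh signalling, which drives follicle growth, held 16 members in all. They lay at 6 of 13 genes (46.2%), and the list's median length was 65.1 kb. Gli2, the main transcriptional effector, had 4 members at 44.1 to 72.4% in the DKO and 15.4 to 19.9% in the WT in the authors' deposited table. Boc, a co-receptor of Shh, had 4 at 51.7 to 62.7% in the DKO and 13.2 to 17.2% in the WT in the authors' deposited table.

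In BMP and TGF-beta signalling, 16 of 31 genes (51.6%) held a member, or 10 in the gene body alone, with a median length of 40.6 kb. Smad7, an inhibitory Smad, had 3 members at 75.04%, 57.0% and 54.2% in the DKO, from the authors' deposited table, with 19.3%, 14.6% and 18.7% in the WT. Bmpr1b, a type I BMP receptor, had 2 at 57.1% and 79.9% in the DKO, from the authors' deposited table, with 17.9% and 15.5% in the WT.

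The Wnt list had a member at 10 of 34 genes (29.4%) and a median length of 30.6 kb. Fzd7, a Wnt receptor, had 3 members at 49.4 to 52.1% in the DKO and 15.1 to 17.7% in the WT in the authors' deposited table. Lrp6, the Wnt co-receptor, had 2 at 51.8% and 63.1% in the DKO, with 14.98% and 17.3% in the WT, in the authors' deposited table. In FGF, EGF, Eda and related growth factor signalling, 9 of 26 genes (34.6%) held a member, with a median length of 20.6 kb.

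Notch signalling was nearer the share of all genes, with 5 of 27 (18.5%) and a median length of 23.7 kb. Maml3, a Notch co-activator, held 4 members at 39.2 to 62.8% in the DKO and 10.3 to 16.8% in the WT in the authors' deposited table. Notch2 held 3 at 41.4 to 50.4% in the DKO and 6.91 to 18.6% in the WT in the authors' deposited table. The insulin-like growth factor receptor gene Igf1r held 3 and Fgfr1 held 2, at 31.2 to 66.0% in the DKO and 9.71 to 19.6% in the WT in the authors' deposited table.

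Structural genes of the hair held few members each. Of 8 inner root sheath and companion layer keratins, 4 had a member in the window (2 in the gene body alone), with a median length of 9.32 kb, and Krt72 and Krt73 shared a single one of 38 bp. Krt27 had one of 885 bp at 71.5% in the DKO and 18.6% in the WT, and Krt75 one of 268 bp at 44.0% in the DKO and 14.8% in the WT, in the authors' deposited table. Of 14 cortex and cuticle keratins 3 had a member (21.4%, median length 6.43 kb), among them Krt82 at 57.9% in the DKO and 19.5% in the WT and Krt39 at 52.0% in the DKO and 18.2% in the WT in the authors' deposited table. Of 14 basal and interfollicular keratins only Krt10 (7.14%), a keratin of suprabasal epidermis, had one, at a median length of 5.60 kb. Among all genes under 10 kb, 4.82% held a member.

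Desmosome and other junction genes had a member at 8 of 24 (33.3%), or 4 in the gene body alone, with a median length of 33.97 kb. Dsp held 3, at 3600, 4489 and 5042 bp from the nearest gene start. They were at 55.0%, 59.4% and 56.0% in the DKO and 19.5%, 18.1% and 16.6% in the WT in the authors' deposited table, beyond the low start region described above. Dsg3, a desmosomal cadherin, held 2 members of 2 bp each, at 58.8% and 69.5% in the DKO and 16.3% and 17.9% in the WT in the authors' deposited table.

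Lists of short genes were read beside the 4.82% of genes under 10 kb. Of 50 Polycomb-target factors, of 7.48 kb in median length, only Pax3 (2.00%) had one, at 42.8% in the DKO and 14.0% in the WT in the authors' deposited table. Of 39 Hox genes, of 3.74 kb in median length, 6 (15.4%) had one, with neighbours such as Hoxb2 and Hoxb3 sharing windows. Hoxc6 had 3 members at 30.3 to 43.9% in the DKO and 4.44 to 10.1% in the WT in the authors' deposited table. Of 25 housekeeping genes, of 5.40 kb in median length, 3 had one in the window and none in the gene body, with Hspa8 at 41.3% in the DKO and 11.4% in the WT in the authors' deposited table.

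No member lay at the 8 dermal papilla and fibroblast markers (median length 50.8 kb) or the 7 immune cell markers (10.9 kb). Of 8 melanocyte markers (31.9 kb) only Dct had one, at 52.5% in the DKO and 11.4% in the WT in the authors' deposited table. Of 8 endothelium markers (44.6 kb) only Plvap had one, at 47.1% in the DKO and 17.8% in the WT in the authors' deposited table. Against the 11.4% of all genes, lists of 7 or 8 genes are too short to be read as high or low. Marker methylation does not measure the share of these cells in a library, and their part in the result was not tested.

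Both targeted genes had a member at or near them, and a methylation level does not check the deletion. Inside Tet3, a member of 29 positions at chr6:83439028-83439853 was at 61.9% in the DKO and 10.7% in the WT in the authors' deposited table, 1825 bp from the nearest gene start. The region over the Tet3 start, of 164 positions, was at 7.38% in the DKO and 4.67% in the WT in the authors' deposited table. Outside Tet2 by 359 bp, a member of 6 positions and 46 bp was at 41.03% in the DKO and 5.53% in the WT in the authors' deposited table. Of 20 genes of DNA methylation and demethylation, 6 held a member (3 in the gene body alone, median length 25.6 kb), and Cxxc5, for a CXXC zinc-finger protein, had one at 66.7% in the DKO and 19.9% in the WT in the authors' deposited table.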

How the data were processed

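Genomic DNA of 4 libraries was bisulfite converted and sequenced as paired ends, per the labels' protocols. The submitters' processing notes name Trim Galore, Bismark and the build GRCm38 (mm10). For the region caller and any filter, a name is not given in the sources used here. In the deposited table each region has, per the file headers, a mean methylation fraction for each genotype, turned into percent here, and a score, the statistic of each region. The authors' spread estimate is on the fraction scale. A model on reads for each library had been planned and could not be fitted, because the table holds none.

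Members followed the stated rule. Gene ends came from a RefSeq table (GRCm38.p6) of 20665 autosomal protein-coding genes without strand or exons, and gene starts from RefSeq promoters of 16457 of them. Runs joined gaining regions within 500 bp. Shares have 95% Wilson intervals in the results, over regions only. Members and the 19 gene lists were chosen with earlier results of these data known. Named are the 15 genes with most members, the 10 members highest by DKO level, difference and width (at least 10 positions), the 10 with most positions across a gene end, 2 genes per list, and Tet2 and Tet3. A gene of the 15 and a gene of the lists are not reported here. Of the gene starts in members, the 4 printed, and the 2 for contrast, were chosen after their values were seen. Overlap and distance code was tested on simulated data. Tables were handled with pandas 2.3.3 and numpy 2.4.6 under Python 3.11.15, intervals came from scipy 1.17.1 and plots from matplotlib 3.10.9.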

Additional observations from a re-analysis of the deposited data

How the results depend on the processing

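With the WT bound at 10%, there were 349 members, with a median DKO level of 38.4%, a width of 140 bp, 6.29 positions per 100 bp, 16.6% near a gene end, 3.97% of listed low regions and 20 of the listed genes against 105. With a difference of at least 30 points the values were 54.9%, 462 bp, 3.99 positions per 100 bp, 7.78% near a gene end and 19.8% of low regions. With at least 10 positions they were 2749 members, 53.0%, 609 bp, 3.86 positions per 100 bp, 7.49% and 21.98%. Merging neighbours within 500 bp gave a width of 412 bp and 4.06 positions per 100 bp, and the share of low regions was not run for it. Leaving out regions of 1 or 2 positions, an alternative chosen after seeing the data, gave 51.2%, 432.5 bp, 3.91 positions per 100 bp and 26.8% of low regions. Gene-end windows of 500 bp and 5 kb gave 3.91% and 30.3%. Ranked by members per 10 kb of window, the 15 first genes shared 1, Rgmb, with the 15 by number. Why these values moved was not tested. Including X and Y (4458 members) or leaving out chromosomes 3 and 6 (4013) moved none of the 7 values of the member set beyond its interval. The interval for the number of members, 2966 to 6673.5, was a fixed tolerance and not a statistical interval. The share inside genes stayed within its interval under every alternative for which it was run. It was not run for the gene-end windows of 500 bp and 5 kb. Of the counts for single lists, 33 moved and 43 did not. In the gene body alone the inner root sheath keratins had 2 genes with a member, desmosome genes 4, BMP and TGF-beta genes 10, DNA methylation genes 3, and housekeeping genes and endothelium markers 0. With 20 kb on either side the cortex keratins had 5, basal keratins 3, Notch genes 8, Hox genes 16 and immune markers 1. At 30 points or more the inner root sheath keratins had 1, Notch genes 3, and Polycomb targets, housekeeping genes and endothelium markers 0. No paired analysis was possible because the table holds group means only, and for the same reason no library could be left out. The unknown depth limits every level, most of all in regions of few positions.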

Other observations

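Clusters of members within 5 kb of each other, found after the values were seen, were mostly small. There were 3473 members alone, 382 pairs, 52 clusters of 3 and 14 of 4. At Gja1, which encodes the gap junction protein connexin 43, 4 members with 31 positions lay within 2370 bp at a position-weighted mean of 65.7% in the DKO and 13.7% in the WT. At Rasl11b, 4 members within 7918 bp were at 57.4% in the DKO and 13.5% in the WT by the same mean. Inside Slc7a5, for an amino acid transporter, 4 within 4653 bp were at 59.1% in the DKO and 18.5% in the WT.

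Per 10 kb of gene window, the densest genes were the clustered histone genes H2bc7, H3c4 and H2ac7 on chromosome 13, whose overlapping windows share the same 3 members, which cover only 146 bp. Over the chromosomes the median DKO level of the members ranged from 48.2 to 52.5%.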
